A study of Mus musculus with 12 samples.

Results

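The hnRNP family was followed as 10 genes of the 55335 in the count table (Hnrnpa1, Hnrnpa2b1, Hnrnpa3, Hnrnpab, Hnrnpc, Hnrnpd, Hnrnpf, Hnrnph1, Hnrnpk and Hnrnpu), each found by the gene identifier that maps to its symbol. The measurements are RNA-seq of sorted bone marrow hematopoietic stem cells (HSCs) from Ythdc1 Δ/Δ mice, called Ythdc1 KO, and from Ythdc1 +/+ mice, called wild type. Ythdc1 KO animals were Ythdc1 fl/fl Mx1-Cre and wild-type animals were Ythdc1 +/+ Mx1-Cre, both of strain C57B6, and both received pIpC, a double-stranded RNA that triggers interferon and thereby switches on Mx1-Cre in HSCs and in other interferon-responsive cells. Donor mice were 8 weeks of age, and their marrow was enriched with CD117 beads before the sort. Ythdc1 KO was sequenced as KO176, KO177 and KO209 and wild type as WT178, WT180 and WT207, each number in 2 libraries, 12 libraries in all. Counts of both libraries were summed, giving 3 samples per genotype, and every ± below is an SD over 3 samples. Nothing in the labels ties a number to a separate animal, so the p-values cover the spread among these samples, part of which may be technical.

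Heterogeneous nuclear ribonucleoproteins (hnRNPs) are abundant nuclear proteins that coat pre-mRNA as it is transcribed and steer its splicing, 3′-end formation, export, stability and translation. Several of them also bind primary microRNAs, the long transcripts that the DROSHA and DGCR8 complex cuts in the nucleus, and HNRNPA2B1 has been described in human cells as a reader of N6-methyladenosine (m6A) at that step. YTHDC1, the protein lost in the KO, is a nuclear m6A reader with roles in splicing and export, and HNRNPC and HNRNPA2B1 bind RNA whose accessibility m6A can change.

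All 10 members had a higher fitted level in Ythdc1 KO than in wild-type HSCs, by 0.066 to 0.41 on the log2 scale with a median of 0.21, but 0 of 10 passed the test at an adjusted p under 0.05 (edgeR's quasi-likelihood test, Benjamini-Hochberg over 18234 genes). Of all tested genes 25 were called, which is 0.137%. At an unadjusted p under 0.05, 4 of 10 members were higher in KO and none lower, against 4.28% of all tested genes that were higher at that threshold, and in DESeq2 0 of 10 members were called. In 5 of 10 members every KO sample lay above every wild-type sample, against 7.75% of all tested genes. Such a separation always gives p = 0.1 in the 2-sided exact permutation test over samples, the smallest that 3 against 3 allow. That p therefore adds nothing to the separation itself. The median log2 fold change was -0.0062 over all tested genes and 0.063 over the 2479 genes at 100 CPM or more (counts scaled to a fixed total per sample, here with TMM factors). Of those 2479 genes 64.5% had a higher fitted level in KO, against 48.9% of all tested genes. In 292 of the 2479 every KO sample lay above every wild-type sample. Of the 10 members, 8 are in that abundant range. In bulk samples like these, fewer cells of a type and less RNA per cell cannot be told apart.

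**Figure D1:**
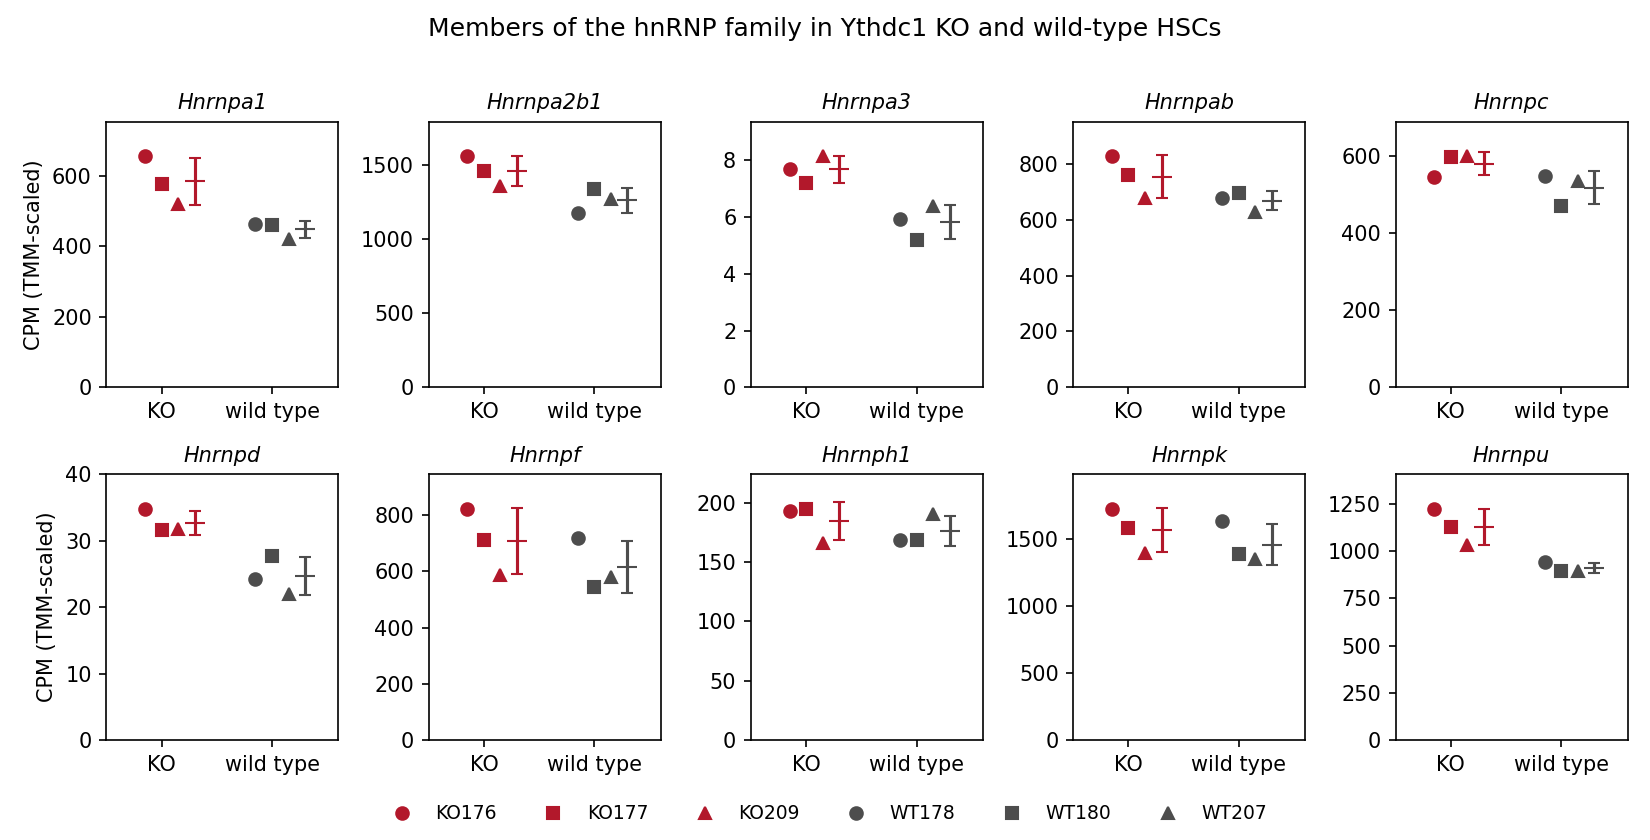
CPM (vertical axis, from 0) of each member in the 3 Ythdc1 KO samples (red, left) and the 3 wild-type samples (grey, right), with the mean and SD beside the points. In Hnrnpa1, Hnrnpa2b1, Hnrnpa3, Hnrnpd and Hnrnpu the KO samples all lie above the wild-type samples, and in the other 5 genes the genotypes overlap.

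Where near-identical copies of a member lie elsewhere in the genome, reads from the gene may be counted on a copy or, where 2 places match equally well, on neither, so these sequences limit the levels that follow. The stretches below are shown for the 3 members with the most counts on a copy, each with that copy, as 60 bases of the coding part in which both differ most. Capitals mark the bases that differ between gene and copy. Sequences are GENCODE transcripts of mm10, printed in the direction of the transcript.
Hnrnpa3: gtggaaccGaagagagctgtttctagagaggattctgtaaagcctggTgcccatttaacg
Gm12960: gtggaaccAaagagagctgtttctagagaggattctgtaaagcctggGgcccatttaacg
Hnrnpk: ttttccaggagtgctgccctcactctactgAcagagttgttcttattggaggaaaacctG
Gm7964: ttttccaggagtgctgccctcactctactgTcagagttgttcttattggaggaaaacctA
Hnrnpa1: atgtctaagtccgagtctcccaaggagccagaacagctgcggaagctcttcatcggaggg
Gm10052: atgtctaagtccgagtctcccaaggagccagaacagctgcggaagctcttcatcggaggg
Hnrnpa3 (chr2:75659261-75669407, plus strand) and Gm12960 (chr4:111807358-111808423, minus strand) differed at 4 of 1063 aligned bases. Hnrnpk (chr13:58391142-58403343, minus strand) and Gm7964 (chr7:83755904-83757281, plus strand) differed at 10 of 1377. Hnrnpa1 (chr15:103240432-103246692, plus strand) and Gm10052 (chr9:123689233-123690192, minus strand) did not differ over the 752 aligned bases, so no capital appears in that pair. Of the other members Hnrnpu lies at chr1:178321108-178337797, Hnrnpd at chr5:99955935-99978938 and Hnrnpa2b1 at chr6:51460932-51469894, all on the minus strand, and Hnrnpf at chr6:117900324-117925622 on the plus strand. Hnrnph1 lies at chr11:50376990-50386528 on the plus strand, Hnrnpab at chr11:51600100-51606847 on the minus strand and Hnrnpc at chr14:52073377-52104028 on the minus strand.

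By sequence match (at least 80% identity over at least 50% of the copy), 97 annotated pseudogenes were assigned as copies to 8 of the 10 members, and 84 of them held at least 1 count. Not all of these copies are near-identical, and whether each is a processed copy was not checked. Hnrnpa3 had 48 copies, which together took 6668 counts over the 12 libraries against 1852 on the gene itself, or 78.3% of both. For Hnrnpk 11.8% of the counts lay on 4 copies, with 52664 on Gm7964 alone, and for Hnrnpa1 5.91% lay on 26 copies. The share was 1.56% for Hnrnpf with 7 copies and 0.642% or less for Hnrnpc, Hnrnpd, Hnrnph1 and Hnrnpa2b1, while Hnrnpab and Hnrnpu had none. Of all windows as long as the shorter reads of the study in the coding part of a transcript, 97.5% in Hnrnpa3, 84.9% in Hnrnpf, 71.9% in Hnrnpa1 and 51.3% in Hnrnpk were identical to a stretch of a copy. The share was 0.491% in Hnrnpc and 0 in the other 5 members. Over the whole transcript it was lower, at 90% in Hnrnpa3, 41.8% in Hnrnpf, 39.9% in Hnrnpa1 and 22.9% in Hnrnpk. A window has the length of 1 read, whereas read pairs over all exons were counted.

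**Figure D2:**
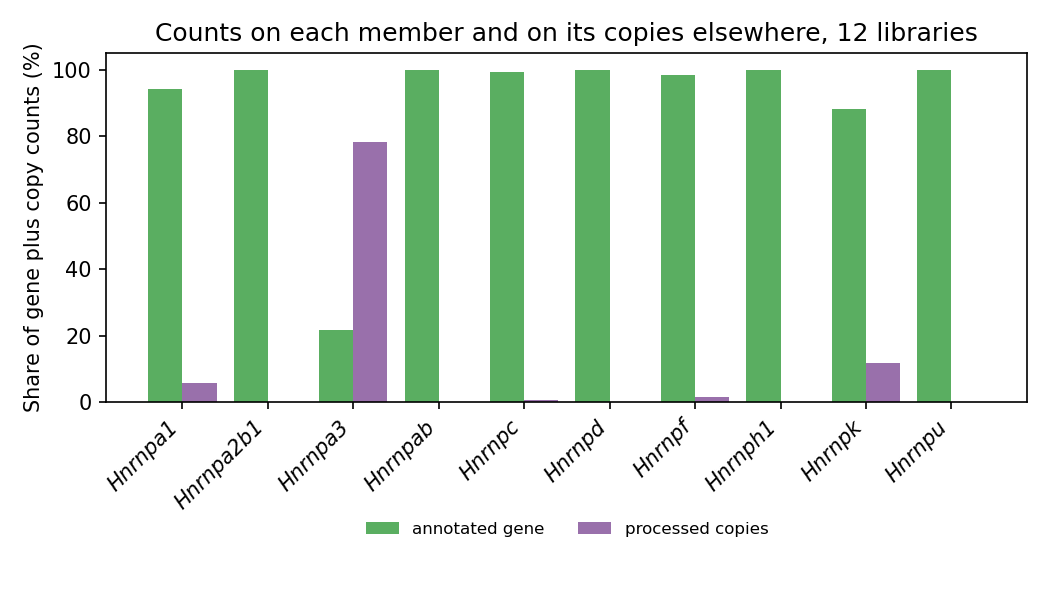
Share of the counts (%, vertical axis) that lay on each annotated member (green) and on its copies elsewhere in the genome (purple), over all 12 libraries. Hnrnpa3 is the member whose copies hold more counts than the gene, 78.3%, followed by Hnrnpk at 11.8% and Hnrnpa1 at 5.91%.

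Among the A/B proteins, which carry paired RNA recognition motifs and a glycine-rich tail, Hnrnpa1 encodes a splicing regulator that in human cells also binds the loop of a primary microRNA. Hnrnpa1 was at 655, 576 and 521 CPM in KO176, KO177 and KO209, against 462, 460 and 421 CPM in WT178, WT180 and WT207. The genotypes did not overlap, and KO176 was the highest sample. The log2 fold change was 0.38 (95% interval 0.10 to 0.67), or 1.31-fold, with an unadjusted p of 0.0138 and an adjusted p of 0.37 from edgeR. With the counts of its copies added, Hnrnpa1 was at 696, 612 and 551 CPM in KO samples and 494, 488 and 448 CPM in wild-type samples, and the log2 fold change was again 0.38.

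Hnrnpa2b1, which encodes the protein that binds primary microRNAs and DGCR8, was at 1557, 1461 and 1358 CPM in KO176, KO177 and KO209 and at 1174, 1339 and 1268 CPM in WT178, WT180 and WT207. Its lowest KO sample and highest wild-type sample lay close to each other, without overlap. In library 1 the log2 difference between the genotype means was 0.082, with overlap (KO209 at 1218 CPM and WT207 at 1354 CPM), and in library 2 it was 0.33, without overlap. For the sums the log2 fold change was 0.21 (95% interval -0.079 to 0.50) with an adjusted p of 0.646 from edgeR, an interval that reaches from 0.947-fold to 1.42-fold. Only 0.0129% of its counts together with those of its copies were on the copies.

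Hnrnpa3, a close relative of the proteins encoded by Hnrnpa1 and Hnrnpa2b1, had 7.69, 7.21 and 8.14 CPM in KO176, KO177 and KO209 and 5.93, 5.19 and 6.38 CPM in WT178, WT180 and WT207. These values rest on 247 to 403 counts per sample, the smallest numbers among the 10 members, and the genotypes did not overlap. The log2 fold change was 0.40 (95% interval 0.041 to 0.75, adjusted p = 0.468 from edgeR). With the 48 copies added, Hnrnpa3 was at 34.7, 34.4 and 31.9 CPM in KO samples and 21.7, 28.0 and 35.3 CPM in wild-type samples. On that count WT207 was the highest of the 6 samples and the genotypes overlapped, with a log2 fold change of 0.25 and an adjusted p of 0.677 from edgeR. The absence of overlap in Hnrnpa3 therefore holds for the reads assigned to the gene and not for the sum.

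Hnrnpab, a shuttling protein of the same structural type that is named CArG-box binding factor A, had 828, 762 and 677 CPM in KO176, KO177 and KO209 and 679, 696 and 630 CPM in WT178, WT180 and WT207. KO209 lay below the highest wild-type samples, and the log2 fold change was 0.18 (95% interval -0.11 to 0.46, adjusted p = 0.698 from edgeR), or 0.11 without KO176. Of its 2782 exon bases 29.1% also lie in exons of Phykpl on the opposite strand. Counting took no account of strand and left out fragments that touched both genes. Such overlap with other genes covered 6.93% of the exon bases of Hnrnpu, 6.32% of Hnrnpd, 5.1% of Hnrnpk and 1.06% of Hnrnpa3, and none of Hnrnpa1, Hnrnpa2b1, Hnrnpc and Hnrnph1.

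The proteins encoded by Hnrnpc and Hnrnpd bind uridine-rich and AU-rich RNA. Hnrnpc, whose product packages nascent pre-mRNA as a tetramer, had 546, 598 and 600 CPM in KO176, KO177 and KO209 and 550, 470 and 537 CPM in WT178, WT180 and WT207. Here KO176 was the lowest KO sample, below WT178. Hnrnpc had a log2 fold change of 0.16 (95% interval -0.11 to 0.44, adjusted p = 0.706 from edgeR), and it was 0.092 without WT180.

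Hnrnpd, also named AUF1, encodes a protein that binds AU-rich elements and regulates mRNA decay. It was at 34.8, 31.6 and 31.8 CPM in KO176, KO177 and KO209 and at 24.3, 27.7 and 22 CPM in WT178, WT180 and WT207. The summed samples did not overlap, and Hnrnpd had the largest log2 fold change and the smallest p of the 10 members, 0.41 (95% interval 0.13 to 0.69, unadjusted p = 0.00835, adjusted p = 0.325 from edgeR), at rank 467 of 18234 genes. Its libraries spread more widely than the sums. Library 1 was higher than library 2 in all 6 sample numbers, by 1.13-fold to 1.95-fold, for example 36.4 against 18.7 CPM in WT180. In library 1 the KO samples were at 36.2, 38.4 and 34.6 CPM and the wild-type samples at 27.3, 36.4 and 26.8 CPM, which overlapped. In library 2 the KO samples were at 32.1, 24.5 and 30.0 CPM and the wild-type samples at 21, 18.7 and 17.9 CPM, without overlap. What the digit of a library stands for is not given in the labels.

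Hnrnpf and Hnrnph1 encode close relatives that bind runs of guanine and regulate splicing and polyadenylation. Hnrnpf had 822, 713 and 586 CPM in KO176, KO177 and KO209 and 719, 545 and 581 CPM in WT178, WT180 and WT207. The spread within each genotype was wide, ± 118 CPM in KO and ± 91.8 CPM in wild type, and the log2 fold change was 0.20 (95% interval -0.16 to 0.56, adjusted p = 0.729 from edgeR). Leaving out 1 sample moved it to between 0.084 (without KO176) and 0.33 (without WT178), with 0.32 without KO209 and 0.11 without WT180. Of its exon bases 26.5% overlap exons of 4933440N22Rik and Gm43863 on the opposite strand, and for Hnrnpf too fragments touching both were not counted.

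Hnrnph1 had the smallest fitted difference of the 10 members with all 6 samples in the fit, at 193, 195 and 166 CPM in KO176, KO177 and KO209 and 169, 169 and 191 CPM in WT178, WT180 and WT207. The lowest of all 6 samples was a KO sample. Its fitted log2 difference was 0.066 (95% interval -0.20 to 0.33, adjusted p = 0.891 from edgeR), so the interval runs from 0.873-fold to 1.26-fold. The samples KO176 to WT180 alone gave a difference of 0.20 in mean log2 CPM, and KO209 against WT207 gave -0.20. Leaving out 1 sample moved the fitted value to between 0.022 (without KO177) and 0.14 (without KO209), and without WT207 it was 0.13, above the 0.054 of Hnrnpk in that fit. In Hnrnph1 library 2 was higher than library 1 in all 6 numbers, by up to 1.47-fold in WT207 (228 against 155 CPM), opposite to Hnrnpd.

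**Figure D3:**
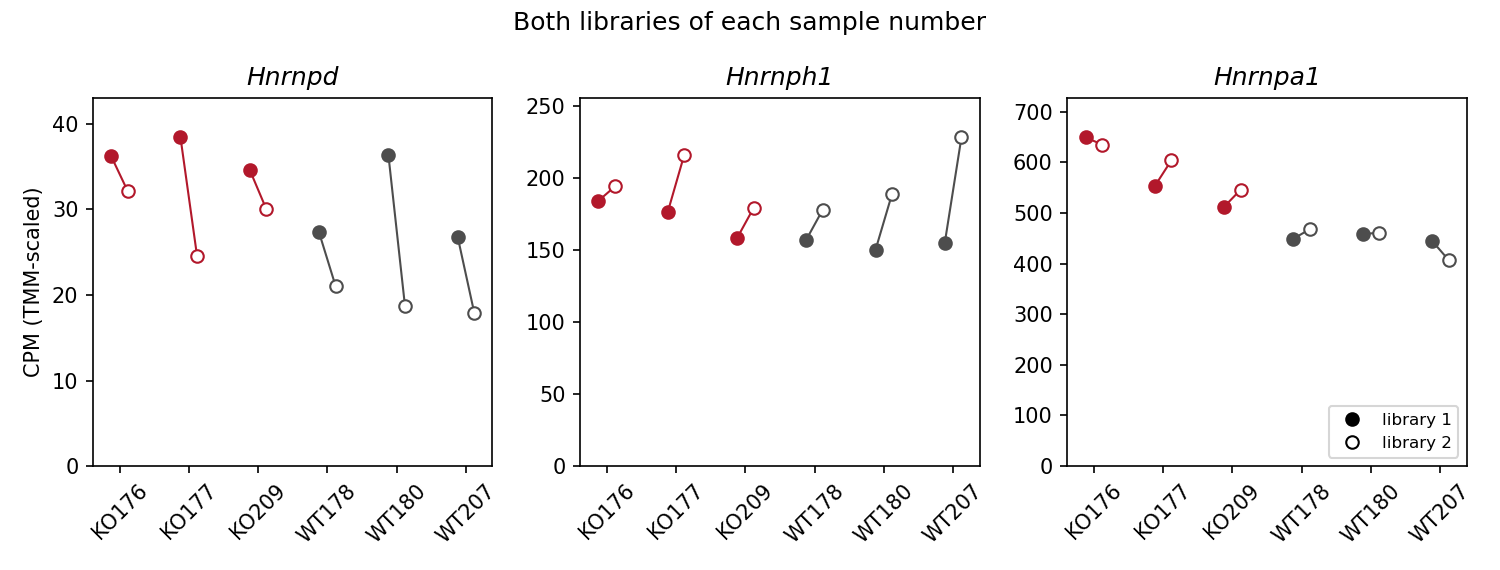
CPM (vertical axis, from 0) in library 1 (filled) and library 2 (open) of each sample number, Ythdc1 KO in red at the left and wild type in grey at the right. Library 1 is higher in all 6 numbers in Hnrnpd and lower in all 6 in Hnrnph1, while Hnrnpa1 differs by at most 1.09-fold within a number.

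Hnrnpk encodes a KH-domain protein that binds cytidine-rich RNA and DNA and acts in transcription, splicing and translation. It had 1723, 1581 and 1397 CPM in KO176, KO177 and KO209 and 1630, 1389 and 1352 CPM in WT178, WT180 and WT207. KO and wild-type samples overlapped, and the log2 fold change of 0.11 (95% interval -0.21 to 0.42, adjusted p = 0.852 from edgeR) was 0.10 with the copies added. Leaving out 1 sample moved it to between 0.038 (without KO176) and 0.20 (without WT178), with 0.18 without KO209, 0.066 without WT180 and 0.054 without WT207. Gm7964, the copy printed above, had 170 to 214 CPM in the KO samples and 174 to 216 CPM in the wild-type samples (log2 fold change 0.072, adjusted p = 0.899 from edgeR).

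Hnrnpu, whose product is a large chromatin-associated scaffold that binds nuclear RNA and DNA, was at 1223, 1127 and 1034 CPM in KO176, KO177 and KO209 and at 942, 894 and 895 CPM in WT178, WT180 and WT207. The wild-type samples varied by ± 27.1 CPM and the KO samples by ± 94.6 CPM, and the genotypes did not overlap. For Hnrnpu the log2 fold change was 0.31 (95% interval 0.028 to 0.59, unadjusted p = 0.034, adjusted p = 0.473 from edgeR). Hnrnpu has no copy that met the match, so copies do not enter its level. In library 1 the log2 difference between the genotype means was 0.46, without overlap, and in library 2 it was 0.15, with overlap.

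Summed over the 10 members, the family took 7590, 7051 and 6379 CPM in KO176, KO177 and KO209 and 6354, 5995 and 5903 CPM in WT178, WT180 and WT207. KO209 and WT178, the nearest samples of the genotypes on this scale, were almost at the same sum. The TMM factors were 0.9014, 0.9776 and 1.079 in KO176, KO177 and KO209. In WT178, WT180 and WT207 they were 0.9902, 1.003 and 1.058. A lower factor raises every CPM of a sample, so the order of the samples depends on the scaling. On totals without TMM all 10 members still had a higher fitted level in KO. Their median log2 fold change was then 0.15, with -0.052 over all tested genes. The means of the sums were 7007 ± 607 CPM in KO and 6084 ± 238 CPM in wild type, so KO was at 115% of wild type. Without regard to length, Hnrnpk, Hnrnpa2b1, Hnrnpu and Hnrnpab together held 69.6% to 72.0% of this sum in every sample. KO176 was the highest of the 6 samples in 7 members, KO209 in 2 and KO177 in 1, and a wild-type sample was the lowest in 9, the exception being Hnrnph1. Without KO176 all 10 members still had a higher fitted level in KO, at a median of 0.19 on the log2 scale. In that fit 0 of 10 members were called (edgeR), against 27 of all 19083 tested genes. Hnrnpf was then at 0.084, Hnrnpk at 0.038, Hnrnph1 at 0.037 and Hnrnpab at 0.11 on the log2 scale, all nearer to 0 than with all samples, Hnrnpa1 was at 0.30 and Hnrnpu at 0.25, and Hnrnpc was higher than with all samples, at 0.21.

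The numbers of KO176 to WT180 and those of KO209 and WT207 form separate ranges, and whether these mark batches is not given. Within KO176 to WT180 the KO samples were higher in all 10 members, by 0.13 to 0.42 in mean log2 CPM. Between KO209 and WT207, 1 sample each and hence with no test, KO was higher in 9 of 10, by 0.011 in Hnrnpf to 0.53 in Hnrnpd, and lower in Hnrnph1. Fitted with a term for the range, no member was called, the smallest adjusted p being 0.128 for Hnrnpa1 in edgeR. Of all 19259 genes tested in that fit 88 were called.

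Tested as 12 separate libraries, which treats both libraries of a number as independent, Hnrnpa1 (adjusted p = 0.00917) and Hnrnpu (adjusted p = 0.0374) were called higher in KO by edgeR, 2 of 10 members against 2.23% of all genes tested that way. With the library digit as a block, Hnrnpa1 (adjusted p = 0.0154), Hnrnpd (adjusted p = 0.0372) and Hnrnpu (adjusted p = 0.0485) were called higher by edgeR, 3 of 10 against 2.09%. With the sample number kept as a random block (voomLmFit in edgeR, limma), 0 of 10 were called, against 131 of all 15551 genes tested. The smallest adjusted p of a member in voomLmFit was 0.0519, again for Hnrnpa1. These calls hold only where the libraries of 1 number count as separate samples.

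Compared per length, Hnrnpab was the highest member in wild type at 240 ± 12.3 CPM per kilobase of annotated exon, followed by Hnrnpk at 225 ± 23.4, Hnrnpf at 202 ± 30.1 and Hnrnpa2b1 at 191 ± 12.6 CPM per kilobase. The wild-type samples of neighbours among these 4 overlapped, and those of Hnrnpa2b1 did not overlap with Hnrnpa1. Hnrnpa1 at 142 ± 7.19, Hnrnpc at 120 ± 9.86 and Hnrnpu at 78.5 ± 2.34 CPM per kilobase came next, each without overlap with the following gene. Hnrnph1 stood at 30.2 ± 2.16, Hnrnpd at 3.35 ± 0.389 and Hnrnpa3 at 1.08 ± 0.112 CPM per kilobase. The order in KO samples was the same, with 272 ± 27.2 for Hnrnpab and 1.42 ± 0.0866 CPM per kilobase for Hnrnpa3. The exon length joins all transcripts of a gene. Divided by the length of a single transcript, Hnrnpa2b1 came first in wild type at 729 CPM per kilobase, ahead of Hnrnpk at 491 and Hnrnpab at 465, so the order of the leading members depends on the length used. Hnrnpd and Hnrnpa3 came last with either length on the deposited counts. With the counts of the copies added, per exon length of the gene, Hnrnpk came first in wild type at 256 CPM per kilobase. Its samples, at 238 to 287, overlapped with those of Hnrnpab at 226 to 250 CPM per kilobase. Hnrnpa3 at 5.25 then stood above Hnrnpd at 3.36 CPM per kilobase without overlap. The order of the first and of the last members thus also depends on the copies. All these levels lack the fragments left out for shared exons or several matches, and shared exons differ between genes.

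**Figure D4:**
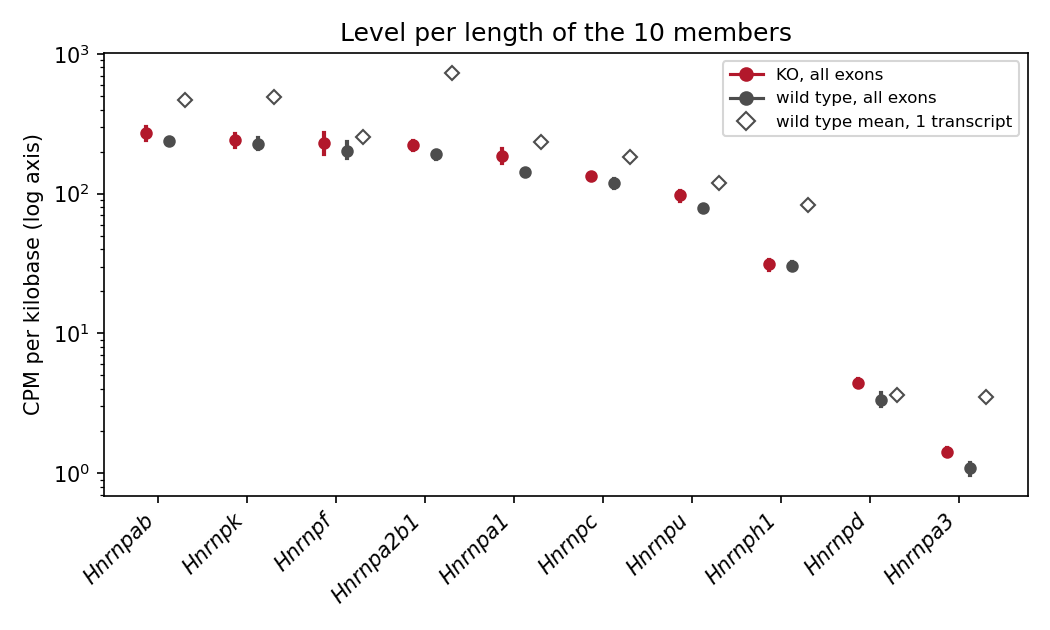
CPM per kilobase (vertical log axis) of the 10 members, in the order of their wild-type mean over all annotated exons. Points are means and bars the range of 3 samples, for Ythdc1 KO (red, left) and wild type (grey, right), and open diamonds are wild-type means per length of 1 transcript. Hnrnpd and Hnrnpa3 lie far below the other 8.

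The windows of 250 bases before the RefSeq start sites (GRCm38.p6) of the members were described for what they share. All 10 members matched, with 18 windows among 32851. Their median GC content was 63.8%, against 52.4% over all windows, and the median number of CG dinucleotides was 23, against 6. The letters TATAAA, on either strand, were in 0 of the 18 member windows and in 12.4% of all windows. The letters CCAAT, the core of the binding site of NF-Y, on either strand, were in 12 of the 18 member windows and in 33.8% of all windows. Windows of 1 gene overlap in part, so these shares describe letters and carry no test. The stretches below are shown as examples from the A/B proteins, from the gene's strand, with CCAAT or its reverse complement in capitals.
Hnrnpa1: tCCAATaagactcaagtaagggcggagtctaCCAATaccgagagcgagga
Hnrnpa2b1: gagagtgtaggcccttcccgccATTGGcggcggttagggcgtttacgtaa
Hnrnpa3: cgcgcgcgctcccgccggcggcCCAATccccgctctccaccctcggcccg
They lie at chr15:103240347-103240396 on the plus strand, chr6:51469918-51469967 on the minus strand and chr2:75659114-75659163 on the plus strand.

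Of the 24 other genes of the family or known by an hnRNP letter, all 24 were tested, 18 had a higher and 6 a lower fitted level in KO, and 0 were called (edgeR, adjusted p under 0.05). Their median log2 fold change was 0.13, and 2 of 24 were higher at an unadjusted p under 0.05, against 4.28% of all tested genes. In 5 of the 24 genes the genotypes did not overlap, each with KO higher, against 7.75% of all tested genes. These were Hnrnpa0, Hnrnph2, Hnrnpr, Syncrip and Raly, of which Hnrnpr was named after its values were seen. The 24 genes summed to 4094, 3764 and 3591 CPM in KO176, KO177 and KO209 and to 3616, 3481 and 3514 CPM in WT178, WT180 and WT207, so KO209 lay below WT178 on the TMM scale.

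Syncrip, which encodes hnRNP Q, an RNA-binding protein of mRNA transport and translation, had 126, 102 and 109 CPM in the KO samples and 90.6, 93.2 and 85.7 CPM in the wild-type samples, the smallest p of the 24 (log2 fold change 0.32, 95% interval 0.067 to 0.58, adjusted p = 0.409 from edgeR). Hnrnpa0, an intronless relative of the A/B genes, had 24.1, 22.2 and 24.9 CPM in KO and 14.9, 19.5 and 20.8 CPM in wild type (log2 fold change 0.37, adjusted p = 0.464 from edgeR). In both genes every KO sample was above every wild-type sample. Raly, an hnRNP C relative, had a log2 fold change of 0.22 (adjusted p = 0.568 from edgeR) and Hnrnph2, a relative of Hnrnph1, had 0.20 (adjusted p = 0.627 from edgeR). Hnrnpl, a splicing regulator that binds CA-rich RNA, was at 167 CPM in KO176 but at 103 and 88.2 CPM in KO177 and KO209, against 76.8, 99.4 and 102 CPM in wild type. A single KO sample thus stood apart in Hnrnpl, and its interval was wide (log2 fold change 0.36, 95% interval -0.17 to 0.90, adjusted p = 0.667 from edgeR). Pcbp3, of the poly(C)-binding proteins related to hnRNP K, had a lower fitted level in KO (log2 fold change -0.21, 95% interval -0.50 to 0.076, adjusted p = 0.645 from edgeR).

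**Figure D5:**
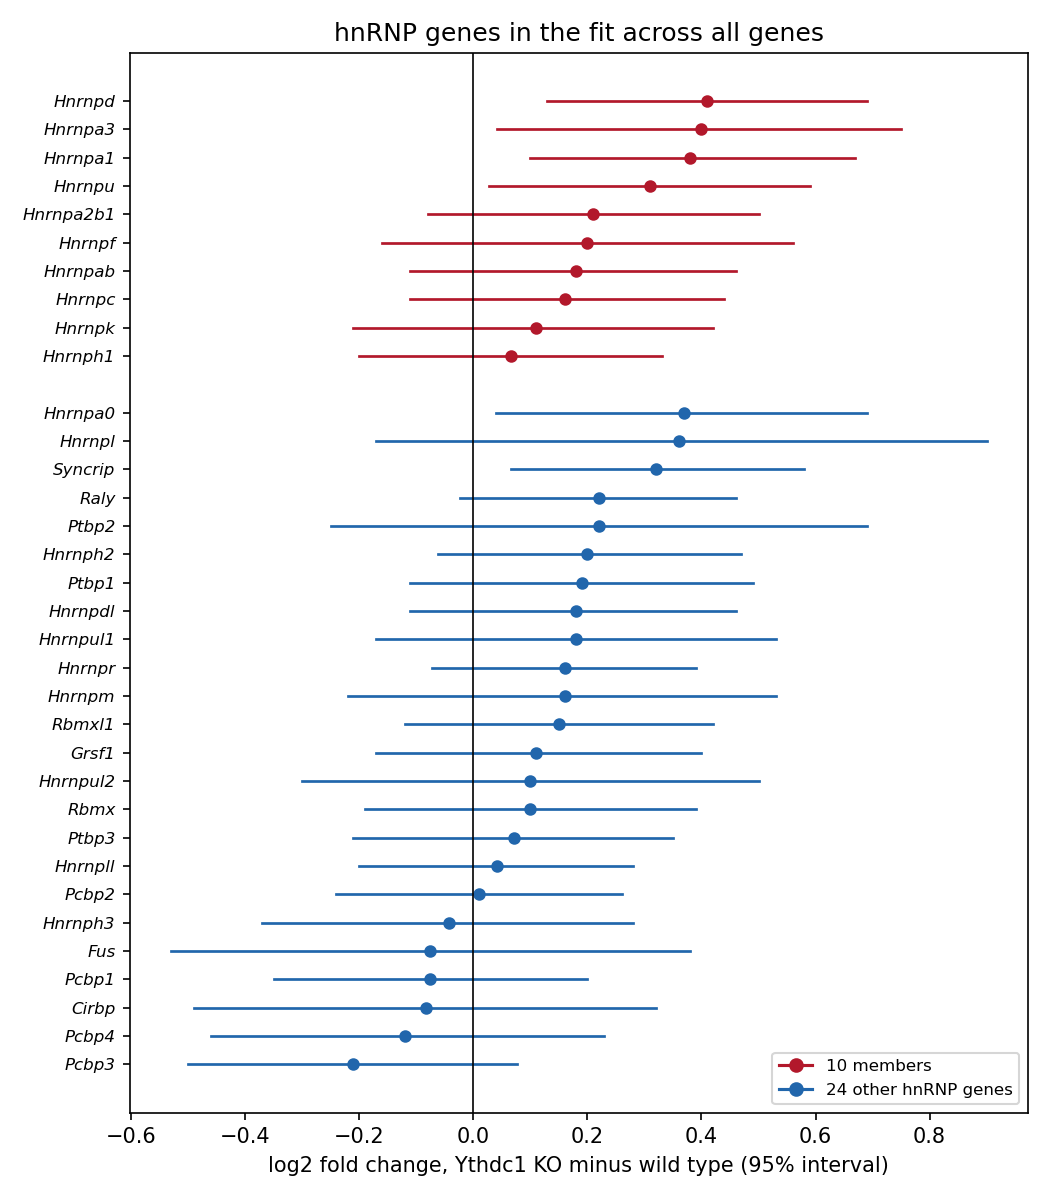
Log2 fold change, Ythdc1 KO minus wild type (horizontal axis), with its 95% interval for the 10 members (red, above) and the 24 other hnRNP genes (blue, below), each set ordered by value. All 10 members lie right of 0, 4 of them with an interval that does not reach it, and 18 of the 24 other genes lie right of 0.

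Of 5 genes of the nuclear step of microRNA processing, 0 were called and 0 had an unadjusted p under 0.05 in edgeR, and their median log2 fold change was 0.061. Hp1bp3, a chromatin protein that binds primary microRNAs, had 248, 291 and 279 CPM in KO176, KO177 and KO209 and 247, 277 and 283 CPM in WT178, WT180 and WT207, an almost complete overlap (log2 fold change 0.022, 95% interval -0.24 to 0.29, adjusted p = 0.969 from edgeR). Drosha, the nuclease, was at a log2 fold change of 0.20 (95% interval -0.093 to 0.49) and Dgcr8, its RNA-binding partner, at 0.12 (95% interval -0.13 to 0.37). The helicases Ddx5 and Ddx17 were at 0.061 and -0.076. Samples of the genotypes overlapped in all 5.

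Other measured differences ran beside the members. Of 20 cell division genes 0 were called and 19 had a higher fitted level in KO. At an unadjusted p under 0.05, 11 of 20 were higher, against 4.28% of all tested genes (edgeR). At the median their log2 fold change was 0.33. The smallest p-values were those of Ttk, a spindle checkpoint kinase (log2 fold change 0.49, adjusted p = 0.194 from edgeR), Bub1b, another spindle checkpoint kinase (0.45, adjusted p = 0.266 from edgeR) and Ccna2, cyclin A2 (0.46, adjusted p = 0.27 from edgeR). The 20 genes summed to 3073, 2764 and 2726 CPM in KO176, KO177 and KO209 and to 2286, 2430 and 2187 CPM in WT178, WT180 and WT207, without overlap. Granulocyte markers, 13 of 13 with a higher fitted level in KO and 0 called (edgeR), summed to 24974, 15162 and 13186 CPM in KO176, KO177 and KO209 and to 14362, 13190 and 11105 CPM in WT178, WT180 and WT207. KO176, the highest sample in 7 of the 10 members, was the highest in both sums. It also had the lowest TMM factor of all samples, 0.9014, which raises every CPM in KO176. These places are therefore given on the TMM scale only. Whether cell division or granulocytic RNA has a part in the members' values was not tested.

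Total counts were 45939230 to 46937648 in KO samples and 42098649 to 48095239 in wild-type samples. Of 10 HSC markers all passed the filter on low counts, 9 had a lower fitted level in KO and 0 were called (edgeR), with summed levels of 803 to 901 CPM in KO and 988 to 1154 CPM in wild type. B cell markers had a higher fitted level in KO in 11 of 12, at a median log2 fold change of 0.59, and 0 were called (edgeR). Their sums were 121 to 163 CPM in KO and 124 to 137 CPM in wild type. Most of each sum was Cd79b, at 80.8 to 110 CPM in KO and 92.7 to 108 CPM in wild type. Cd79b was the B cell marker with a lower fitted level in KO (log2 fold change -0.059). Of the B cell markers Pax5 was at or under 0.384 CPM in every sample. The macrophage markers summed to 94.3 to 209.1 CPM in KO and 83.1 to 124 CPM in wild type, and the erythroid markers to 56.7 to 67.0 CPM in KO and 47.1 to 68.2 CPM in wild type. Of the 8 tested macrophage markers 7 had a higher fitted level in KO, at a median log2 fold change of 0.59. Of the 8 erythroid markers 7 were higher, at a median of 0.34. In both lists 0 were called (edgeR). Stromal and endothelial markers summed to 71.7 to 85.5 CPM in KO and 60.2 to 76.8 CPM in wild type, a sum held mostly by Pdgfrb, at 48.6 to 53.9 CPM in KO and 54.3 to 70.4 CPM in wild type. Of the 9 tested stromal and endothelial markers 7 had a higher fitted level in KO and 2, Pdgfrb among them, a lower one. At the median of the 9 the log2 fold change was 1.43. Of these 9 markers 3 were called higher (edgeR), against 16 of all 18234 tested genes. The 3 markers were Adipoq (8.95-fold, adjusted p = 0.0218 from edgeR), Lepr (5.96-fold, adjusted p = 0.0218) and Sparc (3.44-fold, adjusted p = 0.0456), named after their values were seen. Each of these 3 was at 7.3 CPM or less in every sample, and their part in the members' values was not tested. Megakaryocyte markers summed to 190 to 334 CPM in KO and 309 to 462 CPM in wild type, and the 4 T cell markers to 3.31 CPM or less in every sample, with Cd8a at 0 in KO176. All 5 tested megakaryocyte markers had a lower fitted level in KO, at a median log2 fold change of -0.53, and 0 were called (edgeR). The deleted gene, Ythdc1, was at 56.8, 69.6 and 69.6 CPM in KO samples and at 76.0, 72.6 and 92.5 CPM in wild-type samples. Every KO sample lay below every wild-type sample, but Ythdc1 was not called (log2 fold change -0.30, 0.813-fold, adjusted p = 0.521 from edgeR). The counts join all annotated exons, so the deleted part cannot be read apart and they are no test of the labels. Why Ythdc1 RNA remained in KO samples was not tested.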

How the data were processed

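Counts of read pairs per gene, whole numbers as deposited by the authors, had been made with featureCounts 2.0.1 on mm10 without regard to strand. By default this tool leaves out fragments that map to several places or overlap several genes. All 12 columns matched the labels, and the gene length in the table, deposited by the authors, was used for levels per kilobase. The 10 members and the gene lists were chosen with earlier results of these data known.

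Counts of the 2 libraries of a number were summed. Genes were kept by filterByExpr (minimum count 10, minimum total 15), scaled by TMM and compared with edgeR 4.0.16 (robust quasi-likelihood fit, legacy option off) in R 4.3.3. Benjamini-Hochberg adjustment covered 18234 genes, with calls at an adjusted p under 0.05. The log2 fold change is Ythdc1 KO minus wild type, and its 95% interval comes from the F statistic. The named genes are all members, Ythdc1, up to 6 other hnRNP genes and up to 3 cell division genes with the smallest p, the 5 microRNA processing genes and defining markers near 0. Cd79b and Pdgfrb were named outside this rule, since they held most of their sums. The alternatives were other groupings of the libraries, scaling, filters, DESeq2 1.42.0 and voomLmFit (limma 3.58.1), samples left out, and, chosen after seeing the data, totals without TMM, members with their copies, also for the order per kilobase (blastn 2.17.0) and a single transcript's length. The edgeR fit of the summed samples was tested on simulated counts with known changes. A protein table was not used here.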

Additional observations from a re-analysis of the deposited data

How the results depend on the processing

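Over 19 alternative fits, all 190 values of the 10 members stayed above 0, and 185 kept their side of the threshold. The median of the 10 members ran from 0.15 (totals without TMM) to 0.29 (without KO209), and without each sample in turn from 0.19 to 0.29. On totals without TMM the median over all tested genes was -0.052. The number of members called was 0 except for 2 with the 12 libraries as separate samples and 3 with the library digit as replicate block, and the number of other hnRNP genes called was 1 (Syncrip) in both of these fits. The count of all genes called (25) was 751 with the libraries separate, 729 with the digit block, 131 with voomLmFit, 88 with a term for the number range, 221 with DESeq2, 73 with no filter, 3 with the stricter filter, 16 with upper quartile scaling, 15 with the legacy option and 15 without TMM, and 359 genes met an unadjusted p of at most 0.05 with at least 2-fold. Without each sample in turn it was 1 (without WT178) to 81 (without KO209), with 10 without KO177, 6 without WT180 and 2 without WT207, and the members called stayed at 0. The digit is no pairing given by the labels. Deviations of libraries with the same digit in the other genotype correlated at -0.32 to 0.42 (median 0.088, 18 pairs). Those with the other digit in the other genotype correlated at -0.33 to 0.31 (median -0.057, 18 pairs). Per length of 1 transcript, 7 of 10 members kept their rank, and 6 of 10 with the copies added. The length of the RefSeq coding part was not run. The cause of these differences was not tested. Hnrnpa3, at 247 to 403 counts per sample, is the member that depth and copies limit most.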
